A study of Mus musculus with 6 samples.

Results

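A set of 56 genes of the cell division cycle was followed in mouse cardiac fibroblasts with and without Acta2, the gene of smooth muscle actin, which activated fibroblasts (myofibroblasts) assemble into stress fibres. They were found by symbol among the 25746 genes of the deposited table and fall into 3 groups by the phase in which their products act: 13 genes of G1 control (G1 cyclins, their kinases and inhibitors, Rb1 and E2f1), 13 of DNA replication and 30 of mitosis. The rule that selects them is a list of names and uses no measured value, but the names were chosen with earlier results of these data known. RNA-seq was done on 2 samples labelled Acta2 KO and 2 labelled WT, and ATAC-seq, which maps open chromatin, on 1 sample of each.

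All samples are labelled as cardiac fibroblasts from the heart, and the strain is not given in the sources used here. The protocols in the labels describe fibroblasts of WT and Acta2 fl/fl mice that both received an adenovirus carrying Cre and then TGFβ, an activator of fibroblasts, for 2 days. They also describe a mouse line in which a tamoxifen-dependent Cre (MerCreMer) acts in fibroblasts, with cells of the Tcf21 lineage sorted by eGFP. Those mice received tamoxifen at 75 mg/kg/day for 5 days from 6 weeks of age, infarction by ligation of the left coronary artery at 9 weeks, and tamoxifen again from 1 day before to 5 days after it. The labels do not say which procedure gave which library, nor that replicates came from separate animals or cultures, so p-values speak of the spread among these libraries alone, and that spread may be technical.

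A cell enters the cycle when D cyclins with CDK4 or CDK6, and then E cyclins with CDK2, phosphorylate the retinoblastoma protein and free E2F factors, which switch on replication genes. Inhibitors such as p27 (Cdkn1b) and the INK4 proteins hold these kinases back. Mitotic genes peak later, through promoter elements called CHR and CCAAT boxes that the MuvB complex with B-MYB and FOXM1, and the factor NF-Y, bind. Cardiac fibroblasts are mostly quiescent in the healthy heart and divide for a short time after infarction.

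Estimated counts summed to 11370115 and 10864365 in the KO libraries and to 8429166 and 9096811 in the WT libraries. The targeted gene followed the labels: Acta2 had a CPM (the usual counts scaled to a common library size, here with TMM factors) of 256 and 265 in KO against 2186 and 2199.9 in WT. Fibroblast markers had a summed CPM of 3523 to 3528 in KO and 4828 to 4913 in WT. Of the 10, 8 fell and Thy1 rose. Their levels differed widely, and Tcf21 had a CPM of only 5.61 and 6.84 in KO against 10.9 and 11.1 in WT. Of the 12192 genes with enough counts to test, 35.7% were called with edgeR's quasi-likelihood test at a Benjamini-Hochberg adjusted p under 0.05, 18.3% as higher and 17.4% as lower in KO. That large share is the level against which every count of called genes has to be read. DESeq2 called 16.9% of the same genes, 7.89% higher and 8.99% lower.

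Across the cycle genes, the mitotic genes that passed the edgeR test were all lower in KO. With that test the G1 group was split between members that fell and members that rose. The replication group had a median change near 0. Of the 55 genes that could be tested, 5 rose and 16 fell in KO, and 34 did not pass the edgeR test. As shares these are 9.09% rising and 29.1% falling, beside 18.3% and 17.4% over all genes. That excess of falling genes was not there with DESeq2, which called 9.09% of the 55 lower, beside 8.99% of all genes, and 1.82% higher, beside 7.89%. DESeq2 called 3 of 12 G1 genes lower and 0 higher, 2 of 30 mitotic genes lower, and 1 of 13 replication genes higher. With edgeR 10 of 30 mitotic genes fell and 0 rose, and in G1 control 5 of 12 fell and 2 rose. In replication 1 of 13 fell and 3 rose. The median log2 fold change of KO over WT was −0.30 for mitosis, −0.18 for G1 control and −0.02 for replication, beside 0.00 over all genes tested. All 55 passed the filter on low counts in both genotypes. The untested gene was Cdkn2a, which encodes p16 and p19ARF and had 7 and 2 counts in KO against 5 and 3 in WT.

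**Figure D1:**
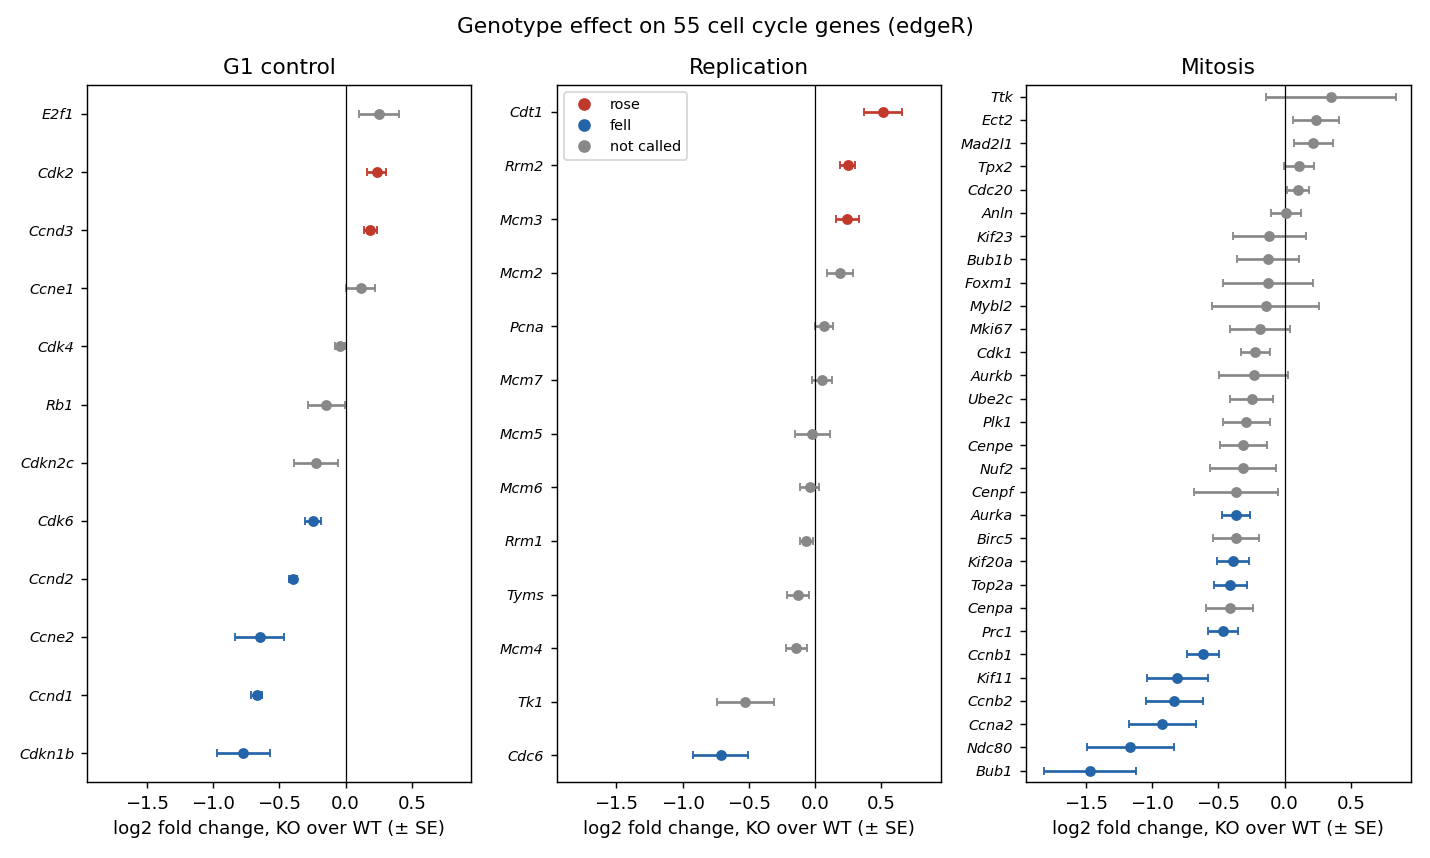
Log2 fold change of KO over WT (x axis) of the 55 tested cell cycle genes, in panels for G1 control, replication and mitosis; bars are 1 standard error of the edgeR fit and colour gives the call. The mitotic genes lie mostly left of 0 and none of them is called higher, while the 3 replication genes that rose lie to the right.

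Whether libraries of the genotypes overlapped can be counted without a model. For 27 of the 55 genes both KO libraries had a lower CPM than both WT libraries, and for 11 both were higher. Over all genes tested these shares were 32.7% lower and 34.3% higher. In mitosis 18 of 30 genes were separated with KO lower and 3 with KO higher.

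The calls depend on how small the spread between replicates is taken to be. The fitted biological coefficient of variation (BCV) was 0.0311. DESeq2 kept 6 of the 21 calls, those of Ccnd1, Ccnd2, Cdk6, Rrm2, Ccnb1 and Bub1, and gave the other 15 adjusted p-values between 0.0508 for Prc1 and 0.265 for Mcm3. With an assumed BCV of 0.1, edgeR called 753 of 12192 genes lower and 1027 higher. Of the 55 cycle genes it called 12 lower and 1 higher. At an assumed BCV of 0.2 it called 3.26% of all genes, 1.83% higher and 1.44% lower. Of the cycle genes it then called Bub1 alone (adjusted p = 0.0222, edgeR).

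Markers of other cell types also differed between the genotypes. Of 12 macrophage and leukocyte markers 8 could be tested and 5 rose, with a summed CPM of 178 and 179 in KO against 103 and 101 in WT; Fcgr1 was at 0 in all libraries and the leukocyte marker Ptprc had 11 and 9 counts in KO against 5 and 1 in WT. The largest part of that macrophage and leukocyte sum was Lyz2, at 93.8 and 97.3 in KO against 52.8 and 48.8 in WT. Of 12 endothelial markers 11 could be tested, 9 rose and 1 fell, with a summed CPM of 505 and 516 in KO against 404 and 378 in WT. Most of the endothelial sum was Eng, at 356 and 353 in KO against 284 and 265 in WT. Pericyte and smooth muscle markers summed to 55.6 and 59.4 in KO against 52.6 and 53.3 in WT, but members moved in opposite directions: of 6 tested, 2 rose (Myh11 by 2.99 and Mcam by 1.10 on the log2 scale) and 3 fell (Steap4 at −1.15, Rgs5 at −0.60 and Cspg4 at −0.58). Mesothelial markers summed to 313 and 302 in KO against 314 and 301 in WT, and of 8 tested 1 rose (Krt19 by 0.49) and 4 fell, among them Upk3b at −0.85 and Wt1 at −0.74. Cardiomyocyte markers summed to 6.05 and 5.02 in KO against 7.20 and 8.18 in WT, with Pln and Nppa at 0 in all libraries, and the 1 that could be tested of 8 fell. The part of these cells in the cell cycle results was not tested. In bulk RNA, fewer dividing cells and less of a transcript in each cell cannot be told apart.

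The D cyclins, which link growth signals to CDK4 and CDK6, moved in different directions. Ccnd1, cyclin D1 (chromosome 7, 144929931 to 144939925), had a CPM of 172 and 168 in KO against 272 and 269.9 in WT. The replicates lay close together and the genotypes far apart, and Ccnd1 fell by 0.67 on the log2 scale (SE 0.044, adjusted p = 1.27e-12, edgeR). Ccnd2, cyclin D2 (chromosome 6, 127125162 to 127152193), had 575 and 587 in KO against 769.7 and 759.5 in WT, and fell by 0.40 (SE 0.031, adjusted p = 6.57e-11, edgeR). Ccnd3, cyclin D3, went the other way, with 173 and 184 in KO against 158 and 156 in WT, a log2 change of 0.19 (SE 0.049, adjusted p = 0.00379, edgeR). Added together, the 3 D cyclins had a CPM of 921 and 939 in KO against 1200.1 and 1185 in WT, so the KO mean was 78.0% of the WT mean. Exons of LTO1 overlap 23.4% of the exon bases of Ccnd1, so part of its estimate may be shared with that gene.

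Of the kinases that D and E cyclins activate, Cdk6 fell, Cdk2 rose and Cdk4 did not pass. Cdk4 had a CPM of 508 and 477 in KO against 503 and 513 in WT (log2 fold change −0.04, SE 0.036, adjusted p = 0.369, edgeR). Cdk6 had 88.5 and 96.8 in KO against 105 and 115 in WT, without overlap, and fell by 0.25 (SE 0.059, adjusted p = 0.00192, edgeR). Cdk2, the partner of E and A cyclins, had 57.9 and 58.9 in KO against 48.4 and 50.8 in WT, a log2 change of 0.23 (SE 0.072, adjusted p = 0.0126, edgeR).

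Among E cyclins, Ccne2 fell and Ccne1 did not pass. Ccne2 had a CPM of 6.31 and 10.5 in KO against 13.8 and 12.5 in WT, with the KO replicates further apart than the distance from the higher of them to WT. Its log2 fold change was −0.65 (SE 0.185, adjusted p = 0.0071, edgeR). Ccne1 had 23.5 and 24.0 in KO against 21.6 and 22.2 in WT, a log2 change of 0.12 (SE 0.111). The difference between the E cyclins was not tested, and exons of Ints8 overlap 17.4% of the exon bases of Ccne2.

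The inhibitor p27, encoded by Cdkn1b, which binds CDK2 and D cyclin complexes, was lower in KO. Its CPM was 6.05 and 4.65 in KO against 9.95 and 8.41 in WT, from 51 to 83 counts per library, and it fell by 0.77 (SE 0.199, adjusted p = 0.00337, edgeR). The INK4 inhibitor Cdkn2c (p18) had a log2 fold change of −0.22 (SE 0.167), Rb1, the retinoblastoma protein gene, −0.15 (SE 0.140), and E2f1, an activating E2F factor, 0.25 (SE 0.152), none of which passed. Summed over the 13 G1 genes, CPM was 1653 in both KO libraries and 1942 and 1951 in WT. Sums were not tested, since an exact permutation test of 2 samples against 2 cannot reach the threshold of 0.05. Some G1 calls did not survive the loss of a library: Ccne2 was lost without KO replicate 1 (log2 fold change −0.33, adjusted p = 0.19996, edgeR), Ccnd3 without KO replicate 2 (0.14, adjusted p = 0.0741), and Cdk2 without KO replicate 1 (0.24, adjusted p = 0.0531), KO replicate 2 (0.22, 0.0741) or WT replicate 1 (0.20, 0.0835). The fold of Cdk2 was thus close to its value from all 4 libraries in each case.

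Promoter sequences are shown for called genes because the deposited peaks cover them and because they let the shared elements of each phase be read. They run from 250 bases before to 50 bases after the start site, 5′ to 3′ on the gene's strand, from RefSeq on GRCm38.p6, the assembly also called mm10. Capitals mark matches, on either strand, to E2F elements (TTTCCCGC, TTTGGCGC, TTTCGCGC or TTTGCCGC), to the CHR (TTTGAA or TTCGAA) and to the CCAAT box (CCAAT). A promoter was counted once for an element however many matches it had. A match is a description of the letters and not evidence of a bound site. Of the G1 genes, Cdk6 (chr5:3343643-3343942, plus strand) and Ccnd3 (chr17:47504801-47505100, plus strand) have the smallest p in their direction among those with a promoter entry, and neither window holds any of these letters:
Cdk6: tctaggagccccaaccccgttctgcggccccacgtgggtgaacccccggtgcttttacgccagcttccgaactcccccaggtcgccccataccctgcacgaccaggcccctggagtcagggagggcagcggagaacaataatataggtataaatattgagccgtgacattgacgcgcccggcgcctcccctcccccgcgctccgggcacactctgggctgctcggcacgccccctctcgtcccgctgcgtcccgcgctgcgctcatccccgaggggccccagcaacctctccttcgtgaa
Ccnd3: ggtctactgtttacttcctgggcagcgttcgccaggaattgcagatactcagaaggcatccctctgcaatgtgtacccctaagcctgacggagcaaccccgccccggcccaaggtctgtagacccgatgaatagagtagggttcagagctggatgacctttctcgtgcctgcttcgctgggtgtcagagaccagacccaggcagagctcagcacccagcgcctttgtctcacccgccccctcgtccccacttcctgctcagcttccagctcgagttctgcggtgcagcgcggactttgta

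**Figure D2:**
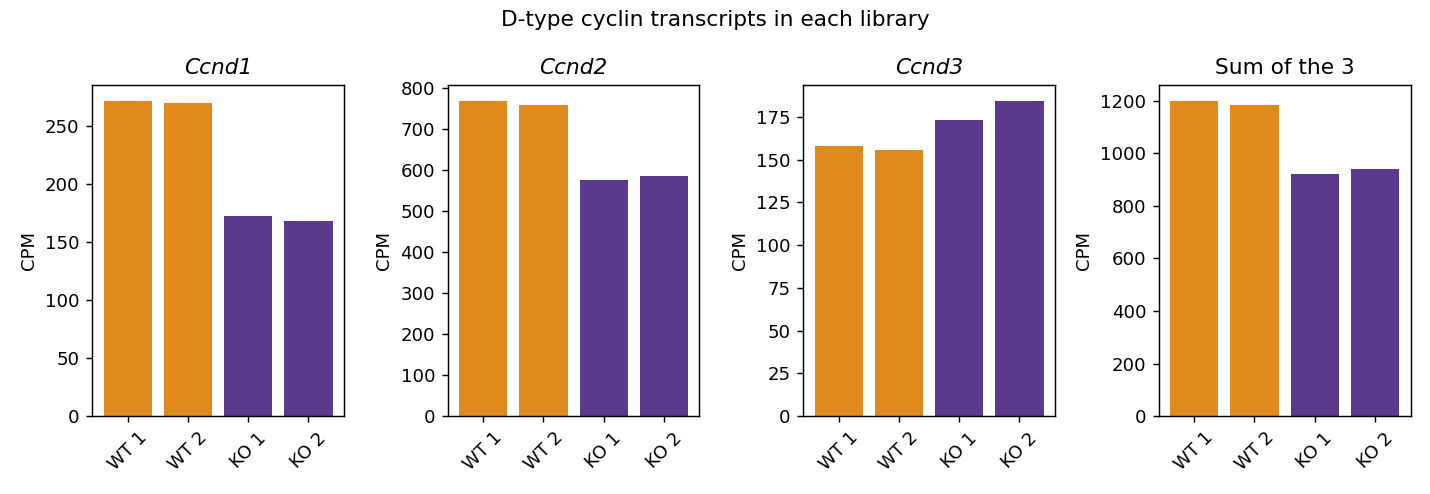
CPM (y axis, from 0) of Ccnd1, Ccnd2, Ccnd3 and their sum in each of the 4 libraries; each bar is 1 library, WT in orange and KO in purple. The KO bars are lower for Ccnd1, Ccnd2 and the sum, 921 and 939 against 1200.1 and 1185, and higher for Ccnd3.

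Replication genes as a group summed to a like level in the genotypes, with 4 members called. Summed CPM over the 13 genes was 623 and 630.5 in KO against 605 and 617 in WT, and the KO mean was 103% of the WT mean. The MCM helicase, which unwinds DNA at the fork and is loaded as a ring of the products of Mcm2 to Mcm7, had a summed CPM of 237 and 241 in KO against 231 and 234 in WT. Mcm3 was the subunit gene that passed the edgeR test, at 41.9 and 40.5 in KO against 32.4 and 37.1 in WT (log2 fold change 0.24, SE 0.088, adjusted p = 0.0312, edgeR). The other 5 lay between −0.14 for Mcm4 and 0.19 for Mcm2, and their subunits act in 1 ring. Mcm3 lost its call without KO replicate 1 (0.22, adjusted p = 0.156, edgeR) or KO replicate 2 (0.27, 0.0597), where the fold stayed near 0.24, and without WT replicate 1 (0.15, 0.291), where it was smaller.

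The loading factors for that helicase moved apart. Cdt1, which brings the MCM ring to origins, had a CPM of 18.2 and 15.8 in KO and 11.9 in both WT libraries, and rose by 0.51 on the log2 scale (SE 0.143, adjusted p = 0.00588, edgeR). Cdc6, which works with Cdt1 at the same origins, had 4.73 and 4.65 in KO against 7.08 and 8.30 in WT, and fell by 0.71 (SE 0.209, adjusted p = 0.00885, edgeR). The genotypes did not overlap for either gene, and their changes were in opposite directions. The call of Cdt1 was lost without KO replicate 1 (0.40, adjusted p = 0.0742, edgeR) and that of Cdc6 without WT replicate 2 (−0.59, adjusted p = 0.0921, edgeR).

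Of the genes that supply nucleotides, Rrm2 rose and the others did not pass. Rrm2, the cycle-regulated subunit of ribonucleotide reductase, had a CPM of 102 and 99.8 in KO against 87.1 and 83.6 in WT, a log2 change of 0.25 (SE 0.057, adjusted p = 0.00117, edgeR). Rrm1, the large subunit, which is more stable through the cycle, had −0.07 (SE 0.050). Tk1, thymidine kinase, had 4.56 and 5.11 in KO against 7.56 and 6.42 in WT, lower in both KO libraries, but its log2 fold change of −0.53 (SE 0.215) missed the threshold at an adjusted p of 0.0565 (edgeR). Tyms, thymidylate synthase, had −0.13 (SE 0.083). Pcna, the sliding clamp of DNA polymerases, overlapped between the genotypes at 73.8 and 80.3 in KO against 68.0 and 78.5 in WT (log2 fold change 0.07, SE 0.069, adjusted p = 0.465, edgeR).

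Replication promoters are shown with and without a match to the E2F letters. Cdt1 (chr8:122567765-122568064, plus strand) and Mcm3 (chr1:20820263-20820562, minus strand) hold E2F letters just after the start site, from base 33 in Cdt1 and from bases 20 and 39 in Mcm3, counted from the start site as 1. Rrm2 (chr12:24708004-24708303, plus strand) holds a CCAAT box beginning 50 bases before the start and no E2F letters. Mcm3 was added to the printed set after the counts of elements were seen:
Cdt1: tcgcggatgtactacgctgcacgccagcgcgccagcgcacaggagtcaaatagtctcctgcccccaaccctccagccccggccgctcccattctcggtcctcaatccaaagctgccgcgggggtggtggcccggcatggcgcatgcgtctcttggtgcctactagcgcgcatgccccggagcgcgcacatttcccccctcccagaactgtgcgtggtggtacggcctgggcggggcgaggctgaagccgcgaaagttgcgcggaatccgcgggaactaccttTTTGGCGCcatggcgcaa
Mcm3: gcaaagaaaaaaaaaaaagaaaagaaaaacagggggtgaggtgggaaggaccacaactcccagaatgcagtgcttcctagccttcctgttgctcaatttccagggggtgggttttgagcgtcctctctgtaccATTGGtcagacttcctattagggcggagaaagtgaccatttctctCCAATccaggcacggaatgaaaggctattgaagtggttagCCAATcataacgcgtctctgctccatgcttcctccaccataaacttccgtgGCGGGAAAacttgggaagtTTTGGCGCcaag
Rrm2: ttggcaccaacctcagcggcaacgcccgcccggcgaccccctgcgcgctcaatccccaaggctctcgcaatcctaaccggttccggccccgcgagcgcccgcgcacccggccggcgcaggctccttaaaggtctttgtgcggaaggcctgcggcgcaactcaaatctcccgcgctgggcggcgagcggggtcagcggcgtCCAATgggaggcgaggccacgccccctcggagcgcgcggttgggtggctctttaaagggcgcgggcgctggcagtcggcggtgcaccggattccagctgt

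Of the mitotic genes 33.3% fell with edgeR, beside 41.7% of G1 control and 17.4% of all genes. With DESeq2 6.67% fell, beside 25.0% of G1 control and 8.99% of all genes. The median CPM in WT was 8.91 for mitosis and 35.8 for G1 control, so these shares do not rank the groups by size of change. Summed over the 30 genes, CPM was 324 and 325 in KO against 373 and 396 in WT, and the KO mean was 84.4% of the WT mean. Of the 30, 24 had a negative log2 fold change. No mitotic gene rose with edgeR or DESeq2, and of the 6 with a positive log2 fold change 0 had an unadjusted p under 0.05 with edgeR.

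The cyclins of G2 and mitosis in this set, Ccnb1, Ccnb2 and Ccna2, fell with edgeR. DESeq2 called Ccnb1 alone of them. Ccnb1, cyclin B1, had a CPM of 16.8 and 16.1 in KO against 23.4 and 26.9 in WT, and fell by 0.61 on the log2 scale (SE 0.121, adjusted p = 0.000221, edgeR). Ccnb2, cyclin B2, had 5.08 and 3.74 in KO against 7.56 and 8.18 in WT, and fell by 0.83 (SE 0.217, adjusted p = 0.0036, edgeR). Ccna2, cyclin A2 (chromosome 3, 36564865 to 36572150), had 4.03 and 2.56 in KO against 6.00 and 6.53 in WT, and fell by 0.92 (SE 0.254, adjusted p = 0.00565, edgeR). For each of these cyclins both KO libraries lay below both WT libraries. Cdk1, the kinase that these cyclins share, did not pass. It had 29.4 and 27.5 in KO against 28.1 and 38.0 in WT, so the genotypes overlapped (log2 fold change −0.22, SE 0.111, adjusted p = 0.122, edgeR). Without KO replicate 2 the calls of Ccnb2 and Ccna2 were lost, at −0.63 and an adjusted p of 0.0557 for Ccnb2 and −0.63 and 0.103 for Ccna2 (edgeR), while Ccnb1 stayed called whichever library was left out. Of the windows of 100 bases along the Ccnb1 exons, 14.9% also occur in another gene, so part of its estimate is uncertain.

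Kinetochores, which join chromosomes to the spindle, and the checkpoint that watches them gave the largest fold changes among the mitotic genes. Bub1, a checkpoint kinase (chromosome 2, 127801122 to 127831865), had 13 and 17 counts in KO against 29 and 36 in WT, a CPM of 1.14 and 1.55 against 3.48 and 3.98. It fell by 1.47 (SE 0.350, adjusted p = 0.00165, edgeR). Ndc80, which gives its name to the complex that holds microtubules, had 23 and 17 counts in KO against 27 and 43 in WT, a CPM of 2.02 and 1.55 against 3.24 and 4.76, and fell by 1.16 (SE 0.330, adjusted p = 0.00686, edgeR). Nuf2, its partner in that complex, had −0.31 (SE 0.247) and did not pass. The other checkpoint genes did not pass either: Bub1b, encoding BUBR1, had −0.13 (SE 0.237), Mad2l1, encoding MAD2, 0.22 (SE 0.146), and Ttk, encoding MPS1, 0.35 (SE 0.492). These genes rest on few counts, and the call of Ndc80 was lost without KO replicate 2 (adjusted p = 0.0635, edgeR) or WT replicate 2 (0.143). Centromere genes that did not pass had log2 fold changes of −0.41 (Cenpa, the centromeric histone), −0.36 (Cenpf) and −0.31 (Cenpe, a motor), all negative.

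Spindle motors and cytokinesis genes fell in part. Kif11, the motor that pushes spindle poles apart, had a CPM of 3.42 and 6.39 in KO against 8.03 and 9.07 in WT, and fell by 0.81 (SE 0.230, adjusted p = 0.00703, edgeR). Kif20a, a motor of the central spindle, had 19.7 and 19.2 in KO against 28.7 and 22.5 in WT, and fell by 0.39 (SE 0.122, adjusted p = 0.0136, edgeR). Prc1, which bundles microtubules there, had 19.1 and 22.2 in KO against 26.0 and 30.7 in WT, and fell by 0.46 (SE 0.116, adjusted p = 0.00249, edgeR). All 3 were lower in both KO libraries than in either WT library. Other genes of that stage did not pass: Anln, an actin-binding scaffold of the cleavage furrow, was at 0.01, Ect2, which activates RhoA there, at 0.24 and Kif23, a central spindle motor, at −0.11. The calls of Kif11, Kif20a and Prc1 were each lost when 1 library was left out, and fewer libraries also make a call harder to reach. The log2 fold change was then −0.43 for Kif11 without KO replicate 1. It was −0.21 for Kif20a without WT replicate 1 and −0.34 for Prc1 without WT replicate 2. Exons of Cdc23 overlap 29.3% of the exon bases of Kif20a, those of Exosc9 12.5% of Ccna2 and those of Rccd1 11.1% of Prc1.

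Mitotic kinases and chromosome genes gave 2 further calls. Aurka, the Aurora A kinase of spindle poles, had a CPM of 21.7 and 22.1 in KO against 27.9 and 28.5 in WT, and fell by 0.37 (SE 0.105, adjusted p = 0.00768, edgeR). Top2a, the topoisomerase that untangles sister chromosomes, had 16.0 and 16.5 in KO against 20.0 and 23.1 in WT, and fell by 0.41 (SE 0.126, adjusted p = 0.0123, edgeR), a call lost without WT replicate 2 (−0.30, adjusted p = 0.150, edgeR). Mki67, the proliferation marker Ki-67, overlapped between the genotypes at 5.52 and 4.75 in KO against 5.04 and 6.64 in WT (−0.19, SE 0.227, adjusted p = 0.554, edgeR). Aurkb (Aurora B) had −0.23, Birc5 (survivin) −0.37, Plk1 (polo-like kinase) −0.29, Cdc20 and Ube2c, which act in the anaphase-promoting pathway, 0.10 and −0.25, and Tpx2, an activator of Aurora A, 0.11, and none of these passed. The regulators of this gene group, Foxm1 and Mybl2 (B-MYB), were at −0.13 (SE 0.341) and −0.14 (SE 0.406), and neither passed.

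**Figure D3:**
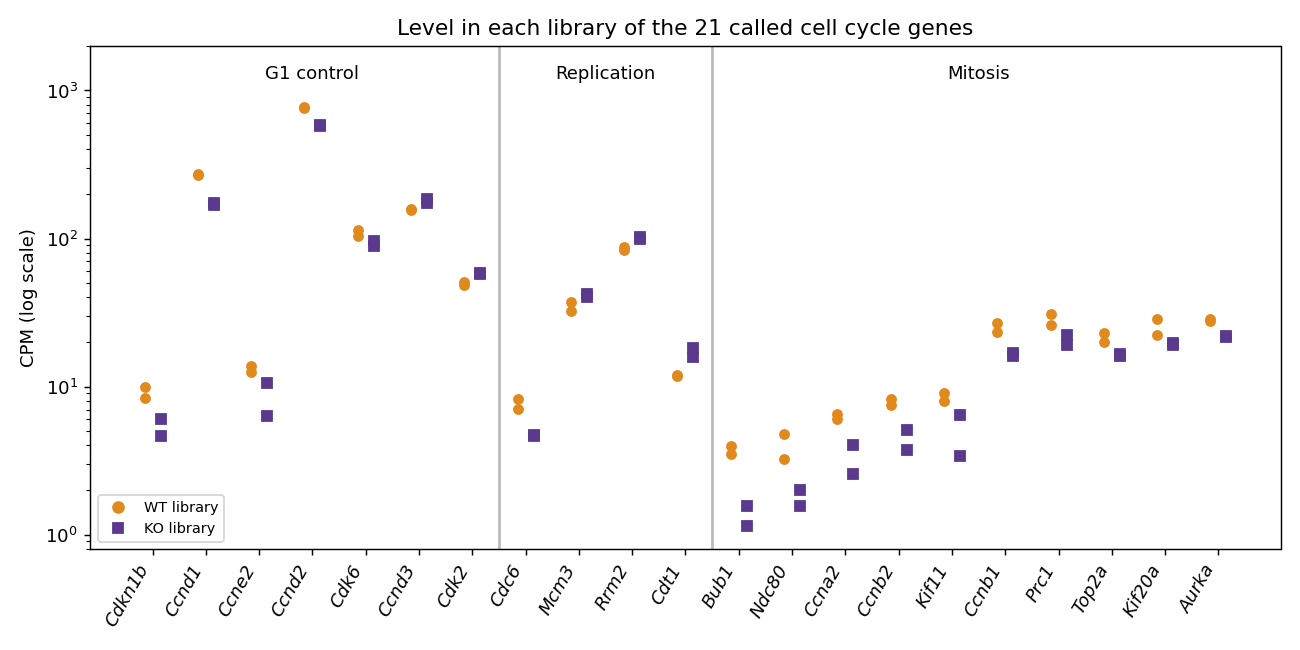
CPM (y axis, log scale) of the 21 called cell cycle genes in each library, WT as orange circles and KO as purple squares, ordered by group and log2 fold change; each point is 1 library. The libraries of the genotypes do not overlap for the called genes, and the lowest point is Bub1 in KO at a CPM of 1.14.

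Mitotic promoters are shown with and without a match to the CHR letters. Bub1 (chr2:127831810-127832109, minus strand) has a CHR from base 15 after the start and CCAAT boxes beginning 68 and 42 bases before it. Ccnb2 (chr9:70421505-70421804, minus strand) has a CHR from base 5, another beginning 167 bases before the start, and CCAAT boxes beginning 87, 54 and 21 bases before it. Ccnb1 (chr13:100786437-100786736, minus strand) has CCAAT boxes beginning 99 and 67 bases before the start. It holds neither TTTGAA nor TTCGAA, and other forms of the CHR were not searched. Ccnb2 was added to the printed set after the counts of elements were seen:
Bub1: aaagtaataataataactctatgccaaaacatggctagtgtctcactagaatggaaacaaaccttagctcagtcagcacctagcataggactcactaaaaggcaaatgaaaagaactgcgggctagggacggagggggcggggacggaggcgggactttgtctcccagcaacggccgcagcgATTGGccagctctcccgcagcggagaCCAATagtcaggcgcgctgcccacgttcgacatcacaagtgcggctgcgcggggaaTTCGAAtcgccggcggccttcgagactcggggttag
Ccnb2: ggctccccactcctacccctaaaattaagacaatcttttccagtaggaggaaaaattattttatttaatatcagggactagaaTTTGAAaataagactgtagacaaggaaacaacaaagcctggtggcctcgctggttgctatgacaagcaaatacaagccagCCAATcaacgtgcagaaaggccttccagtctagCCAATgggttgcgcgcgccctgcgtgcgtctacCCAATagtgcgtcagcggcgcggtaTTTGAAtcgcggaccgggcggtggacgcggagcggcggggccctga
Ccnb1: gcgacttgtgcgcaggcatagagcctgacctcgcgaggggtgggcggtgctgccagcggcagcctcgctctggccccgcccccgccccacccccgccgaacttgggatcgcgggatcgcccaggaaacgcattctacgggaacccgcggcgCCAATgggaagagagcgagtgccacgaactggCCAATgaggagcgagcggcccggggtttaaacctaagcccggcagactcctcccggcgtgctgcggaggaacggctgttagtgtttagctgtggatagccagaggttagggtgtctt

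Shares of promoters with each element were counted by phase, a property that the choice of genes did not use and that was not tested between groups. Promoter entries were matched for 46 of the 56 genes, 9 of G1 control, 12 of replication and 25 of mitosis. E2F letters were found in 6 of 12 replication promoters (Mcm3, Mcm5, Mcm6, Mcm7, Cdc6 and Cdt1), in 1 of 25 mitotic ones and in 2 of 9 of G1 control, beside 4.17% of the 9524 promoters of tested genes. CHR letters were in 19 of 25 mitotic promoters, in 2 of 12 replication ones and in 0 of 9 of G1 control, beside 13.6%. CCAAT boxes were in 19 mitotic and 8 replication promoters and in 2 of G1 control, beside 39.2%. CHR and CCAAT stood together in 17 of the 25 mitotic promoters. Within mitosis the CHR was in 7 of the 8 promoters of genes that fell and in 12 of the 17 of genes not called, so most mitotic genes that did not pass carry it too. Both E2F-bearing loading factor genes, Cdt1 and Cdc6, moved in opposite directions.

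**Figure D4:**
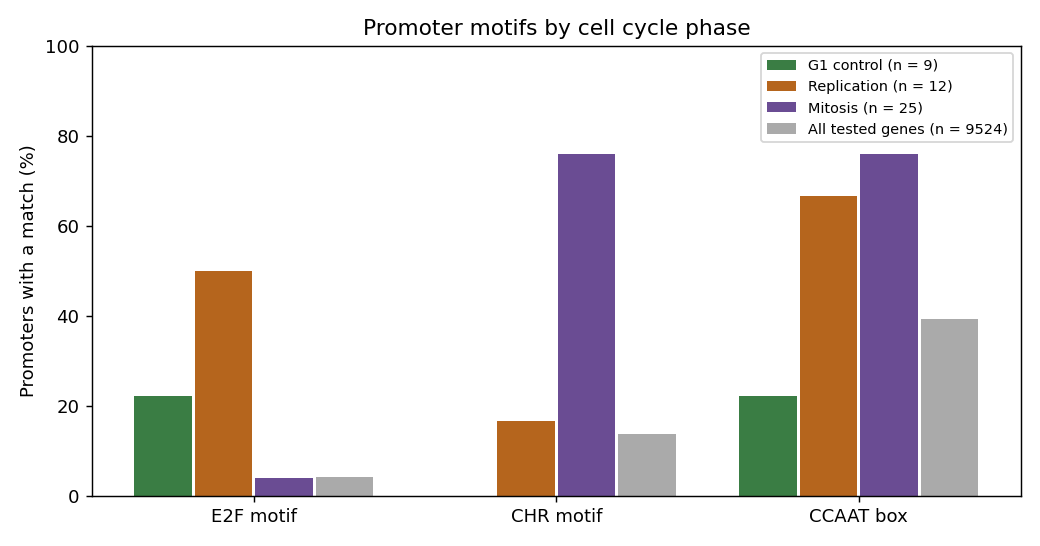
Percentage of promoters with a match to each element (y axis) for the 3 groups and for all tested genes; n is the number of promoters and bars carry no error. E2F letters were in 6 of 12 replication promoters and the CHR in 19 of 25 mitotic ones.

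Open chromatin at these promoters was present in both genotypes. In the ATAC-seq peaks that the authors called in each sample separately, 45 of 46 promoters overlapped a KO peak by at least 1 base and 46 of 46 a WT peak, beside 93.9% and 93.8% of the promoters of tested genes. The promoter without a KO peak was that of Mki67, whose WT peak had a fold enrichment of 11.5. With a window of 1000 bases on either side of the start site all 46 had a peak in both samples. The authors' fold enrichment, the peak's height over the library's background, ran from 10.2 to 40.0 with a median of 20.8 in KO and from 9.04 to 34.5 with a median of 18.5 in WT. Within each list, Cdt1 was the highest in KO at 40.0 (33.7 in WT) and Pcna in WT at 34.5 (31.9 in KO). Bub1 was among the lowest, at 10.2 in KO and 9.04 in WT. Rrm2 was high in both lists, at 34.4 in KO and 33.7 in WT. With 1 library per genotype these values have no replicate check.

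Levels per length place the groups in order. CPM per kilobase of exon (kb) in WT had a median of 9.25 for replication, 7.91 for G1 control and 1.51 for mitosis. Cdk4 was the highest at 156 in WT and 152 in KO, followed by Ccnd2 at 81.3 in WT and 61.8 in KO and Ccnd1 at 57.6 and 36.2. Rrm2 at 30.8 and Pcna at 30.5 did not differ beyond their spread in WT, while in KO Rrm2 was at 36.5 and Pcna at 32.1. Cdc20 was the most abundant mitotic transcript per length, at 20.98 in WT and 22.5 in KO. At the low end, Ttk was at 0.1996 in WT and 0.253 in KO. The standard error of a log2 fold change reached 0.49 in mitosis and 0.21 in replication, against 0.20 in G1 control, so the counts set a coarser limit on the mitotic genes.

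**Figure D5:**
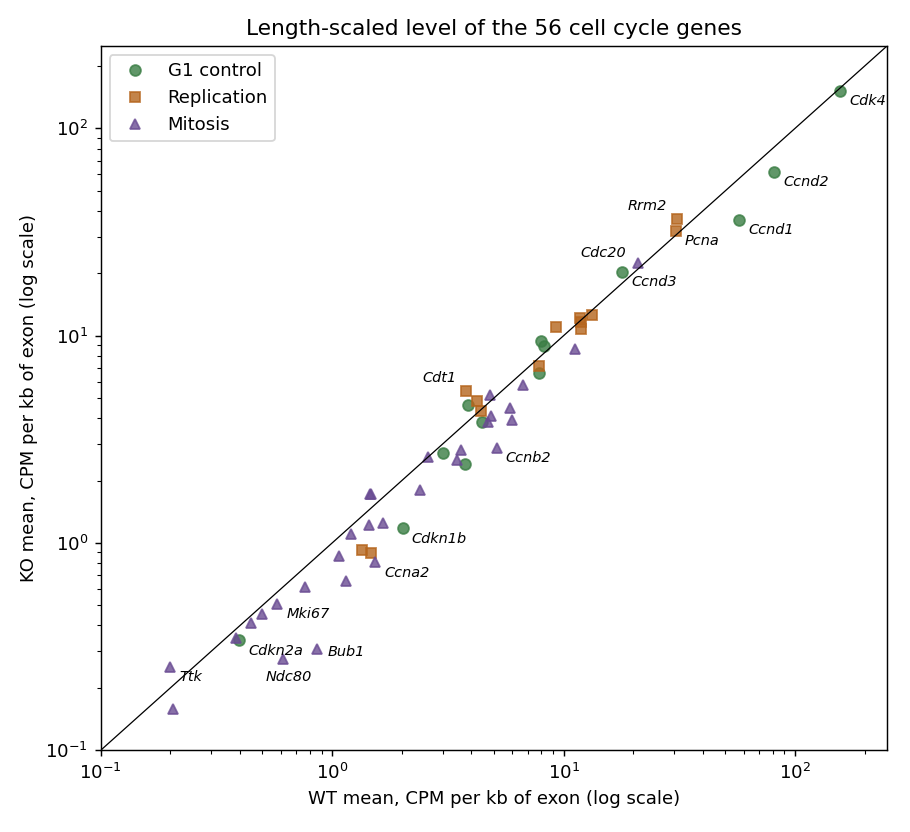
Mean CPM per kb of exon in KO (y axis) against WT (x axis), both on log scales, for all 56 genes, with marker shape and colour by group and a line at equality. Bub1, Ndc80, Ccna2, Cdkn1b and Ccnd1 lie below the line, and mitotic genes occupy the low end (median 1.51 in WT).

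The same fit was read in 151 further cell cycle genes, of which 148 could be tested. They were listed by role, but with earlier results of these data known, so their counts are no independent check. Of 74 other mitotic genes 22 fell (29.7%, beside 17.4% of all genes) and 3 rose (4.05%, beside 18.3%) with edgeR. Their median log2 fold change was −0.26. With DESeq2 5 of the 74 fell (6.76%, beside 8.99% of all genes) and 3 rose. Kif2c, a motor that takes microtubules apart, fell by 1.29 (adjusted p = 0.000177, edgeR) and Ckap2, a spindle protein, fell by 0.54 (adjusted p = 6.46e-06, edgeR). The 3 that rose were Tubb4b, a tubulin, at 0.29, Gtse1 at 0.35 and Ccnf, cyclin F, at 0.54, the last named after its value was seen.

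Of 49 other replication genes 6 fell (12.2%) and 3 rose (6.12%), with a median of −0.13. Both shares were below those over all genes, 17.4% lower and 18.3% higher (edgeR). Orc6, a subunit of the origin recognition complex, rose by 0.46 (adjusted p = 3.41e-05, edgeR), while Dut, which removes dUTP, fell by 0.56, Rpa3, of the single-strand binding protein, by 0.55 and Gins4, a helicase cofactor, by 0.38. Of 25 other G1 genes 4 fell (16.0%) and 6 rose (24.0%), with a median of 0.12. These shares were near the 17.4% and 18.3% over all genes. The INK4 inhibitor Cdkn2b (p15), a known TGFβ target, had a CPM of 44.3 and 42.4 in KO against 88.7 and 82.1 in WT, and fell by 0.98 (SE 0.070, adjusted p = 7.88e-12, edgeR). The inhibitors of the p21 family other than p27 went the other way: Cdkn1a (p21) rose by 0.12 (SE 0.025, adjusted p = 0.000556, edgeR) and Cdkn1c (p57) rose by 0.24 (SE 0.048, adjusted p = 0.000284, edgeR). E2f6, a repressive E2F factor, rose by 0.46 (adjusted p = 0.000124, edgeR). With edgeR, inhibitors were thus found both among genes that fell (Cdkn1b, Cdkn2b) and among genes that rose (Cdkn1a, Cdkn1c). Cdkn1b was not called with DESeq2 (adjusted p = 0.0758), and exons of Gm44732 overlap 30.7% of the exon bases of Cdkn1c.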

How the data were processed

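The data are 4 RNA-seq libraries, 2 per genotype, and 1 ATAC-seq library per genotype, grouped by labelled genotype. The authors trimmed 150 bp paired reads with Trim Galore 0.6 and aligned them to mm10 with STAR 2.5.3a, per the labels' protocols. They deposited 1 table of estimated counts per gene. The protocols mention TPM, but 10.8 to 12.2% of values in a library are not whole and the sums differ between libraries, so they were read as estimates of counts. Which program counted them, on which annotation, is not given in the sources used here. Whole counts had been planned for, and the estimates were rounded. Estimated counts share reads between similar or overlapping genes by a model, and strand is not stated.

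Per the labels' protocols, ATAC-seq reads (10000 cells) were aligned with Bowtie2 2.3, without duplicates, and peaks were called per sample with MACS2. The deposited lists hold a score, a fold enrichment (a ratio) and −log10 p and −log10 q values. Score and p were not used here.

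A quasi-likelihood fit of genotype was made in edgeR 4.0.16 (R 4.3.3) with TMM scaling and the filterByExpr filter at a minimum count of 10, and p-values of all 12192 genes were adjusted by Benjamini-Hochberg, with a threshold of 0.05. Standard errors were derived from the fold change and its F statistic, as the absolute log2 value over the root of F. The fit was tested on simulated data. Lengths are union exons of GENCODE M21, whose coordinates matched the table for 56 of 56 genes. Replicates differed by more than sampling noise (chi-square per gene 1.93 in KO and 1.75 in WT).

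The 56 genes and the further lists were chosen with earlier results of these data known. Every called gene is given with its values, as are Mki67, Cdk1, Pcna, Cdkn2a and genes with an absolute log2 fold change of at least 0.5. Per further list the 4 called genes with the smallest p are named. Promoters shown are those of the 3 genes with the smallest p in each direction among genes with a promoter entry, with Ccnb2 and Mcm3 added. DESeq2 1.42.0, the exact test, other scalings, filters, assumed spreads, a replicate block and the leaving out of each library were the alternatives.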

Additional observations from a re-analysis of the deposited data

How the results depend on the processing

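Limits first: with 2 libraries per genotype and 1 ATAC-seq library of each, the calls rest on how small the spread is taken to be, and mitotic genes such as Bub1 and Ndc80 rest on few counts (13 to 43 per library). None of the 21 called cycle genes reversed under any alternative. All 21 calls were kept with the edgeR exact test, with library size or upper-quartile scaling and with no filter on low counts. With a minimum count of 50, 19 of the 19 still tested were kept, and Bub1 and Ndc80 were no longer tested. There 2 replication genes fell in place of 1, because Tk1 passed. Replicate numbers are not said to pair samples, and the replicate differences of KO and WT had a correlation of 0.000403 over genes. With a replicate block, 5 cycle genes rose and 16 fell, all 21 calls were kept, and 2256 genes rose and 2152 fell overall.

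DESeq2 kept 6 of the 21 calls. It called 962 genes higher and 1096 lower in all, 1 and 5 of the cycle genes, 0 and 3 of G1 control, 1 and 0 of replication, and 2 lower in mitosis. Of the further genes it called 3 higher and 2 lower in G1 control, 1 and 1 in replication, and 3 higher and 5 lower in mitosis. An assumed BCV of 0.1 kept 13 calls. It gave 1027 higher and 753 lower of the 12192 genes in all, and 1 higher and 12 lower of the 55 cycle genes. In G1 control 0 rose and 4 fell of 12, in replication 1 rose and 1 fell of 13. In mitosis 0 rose and 7 fell of 30. For the further genes it gave 2 higher and 1 lower of 25 in G1 control and 1 and 2 of 49 in replication. In the further mitotic genes 1 rose and 15 fell of 74. An assumed BCV of 0.2 kept 1 call. It gave 223 higher and 175 lower in all, 0 and 1 of the cycle genes, 0 and 0 of G1 control, 0 and 0 of replication and 1 lower in mitosis, and for the further genes 0 and 1 in G1 control, 0 and 0 in replication, and 0 and 3 in mitosis.

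Leaving out 1 library at a time (the lone sample is then assumed to vary like the other genotype) kept 15 to 18 of the 21 calls, and 8 genes (Ccnd1, Ccnd2, Cdk6, Cdkn1b, Rrm2, Ccnb1, Aurka and Bub1) were called each time. Cycle genes that rose ranged from 2 to 5 and those that fell from 13 to 16. The ranges were 0 to 2 higher and 4 to 5 lower for G1 control, 1 to 3 higher and 0 to 1 lower for replication, and 8 to 10 lower for mitosis. For the further genes they were 5 to 6 higher in G1 control, 1 to 3 higher and 3 to 7 lower in replication, and 11 to 18 lower in mitosis, the lowest without KO replicate 1 (11) and without WT replicate 2 (12). Over all genes, too, fewer rose and fewer fell in each fit with a library left out than in the main fit. The level for reading these ranges was thus lower, and whether the excess of falling genes held in those fits was not tested. Plain library sizes gave log2 ratios of summed CPM of −0.16 in place of −0.18 for all cycle genes and −0.22 in place of −0.24 for G1 control. Promoter peak counts were 45 in KO and 46 in WT with a stricter q-value or overlap. The cause of these differences was not tested.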
